A study of Mus musculus with 8 samples.

Results

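The loci described here are the mouse immunoglobulin loci, which encode antibody chains, in T-cell precursors that do not make antibody. They were the heavy-chain locus Igh (chr12:113220000-116020000), the kappa light-chain locus Igk (chr6:67550000-70740000) and the lambda light-chain locus Igl (chr16:19020000-19265000), all on mm10. Every ATAC-seq peak that overlapped these 3 windows was a member, whatever its strength. There were 298, 270, 278 and 249 such peaks in the 4 libraries, which merged into 336 regions out of 180321 over the genome. Of these regions 305 lay in Igh, 31 in Igk and 0 in Igl.

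ATAC-seq cuts and tags accessible DNA with a transposase, so a peak marks open chromatin. The cells were DN3 thymocytes of C57BL/6 mice, the stage at which T-cell precursors rearrange the T-cell receptor beta gene. In 2 libraries the genotype was NMe wild type, and in 2 it was homozygous for mutations of GATA site 1 and GATA site 2 of NMe, a Notch-dependent enhancer of Myc. The 4 T-cell leukaemia samples of the series, which had 8 samples in all, were not analysed here. The labels give no age and do not say whether the replicates came from separate animals, so p-values apply only to these libraries. Where every library differed in the same direction, they took the smallest possible value whatever the spread. Where 4 values stand together below, they are for wild type 1, wild type 2, mutant 1 and mutant 2 in that order.

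Antibody genes are assembled from variable (V), diversity (D) and joining (J) segments by the Rag recombinase, and only DNA that is open to Rag can be cut. In B-cell precursors the heavy chain rearranges before the light chains, and the light-chain loci have no D segments. Thymocytes express the same recombinase and are known to join some heavy-chain D and J segments. Complete heavy-chain and light-chain genes are assembled in B cells. Known control elements are the intronic enhancer between Ighm and the J segments, the 3′ regulatory region beyond Igha, the IGCR1 insulator between the D and V segments, the Cer and Sis elements between the kappa V and J segments, and the kappa intronic and 3′ enhancers. No coordinates of these elements were used, so peaks were placed by the annotated segments on either side of them.

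Depth is unknown, because no reads are counted in peak lists, and a place without a peak is only one where none was called. The lists held 169255, 156372, 121022 and 119023 peaks. The mutant lists had wider peaks, with median widths of 444 and 421 bp against 284 and 302 bp, a longer shortest peak (73 and 87 bp against 64 and 65 bp) and a larger smallest gap between peaks (293 and 349 bp against 257 and 261 bp). All 12 genes taken as markers of DN3 and other T-lineage cells carried a peak no more than 1 kb from a gene end in each list. Of 11 B-lineage genes 9 had one in each list, as did 4 of 4 plasma-cell genes. Of 21836 protein-coding genes 67.1% had one in all 4 lists, the background for these counts. Ms4a1, a B-cell surface protein, and Vpreb1, part of the surrogate light chain, had no peak in any list. The part of any B-lineage cells in the results below was not tested.

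The heavy-chain peaks of wild type 2 stood apart from those of the other libraries. Of 112 Igh regions with a fold enrichment of 4 or more in each of the other 3 lists, 6 (5.36%) were missing from wild type 2. The background over all regions was 0.0315%, or 12 of 38052, and on the rest of chromosome 12 it was 1 of 1548. The number of such Igh regions missing was 0 for wild type 1, mutant 1 and mutant 2, beside backgrounds of 0%, 0.0096% and 0.0895%. The 6 regions lay between chr12:114650504 and chr12:116000600, and the region that overlapped Ighv1-54 had a fold of 8.89 in wild type 1, 7.63 in mutant 1 and 7.81 in mutant 2. At V segments with a peak in the other 3 lists, 13 of 103 (12.6%) had none in wild type 2. For wild type 1, mutant 1 and mutant 2 this was 2 of 92, 0 of 90 and 4 of 94. The same shares over all regions were 1.96% for wild type 2, and 0.827%, 5.39% and 6.16% for wild type 1, mutant 1 and mutant 2. Wild type 2 was alone in having a peak at 8 other heavy-chain V segments, 7.55% of its 106, near its share of 7.15% over all regions. Over the T-cell receptor alpha, delta and beta V segments, 0 were missing from wild type 2 alone. Heavy-chain values are therefore given for each library, and the main counts also without wild type 2. The cause was not tested.

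Peaks of all 4 libraries lay over 3 related promoters in the distal heavy-chain V array, whose sequences are shown because near-identical copies were accessible together. They belong to the long noncoding RNA genes Gm30948, Gm30996 and Gm40900, which are all annotated on the + strand, while the V segments of this locus are known to be read from the other strand. The sequences below are from RefSeq promoters of GRCm38.p6, from 250 bases before the annotated start to 50 bases after it. Capitals mark 2 motifs searched on both strands, the E-box CAGGTG and the letters CCAGCAGGG, which match the core of a CTCF motif. CTCF is an architectural protein that anchors chromatin loops, and E-boxes bind E proteins, which are needed in early B and T cells.
Gm30948 (chr12:115262401-115262700, + strand): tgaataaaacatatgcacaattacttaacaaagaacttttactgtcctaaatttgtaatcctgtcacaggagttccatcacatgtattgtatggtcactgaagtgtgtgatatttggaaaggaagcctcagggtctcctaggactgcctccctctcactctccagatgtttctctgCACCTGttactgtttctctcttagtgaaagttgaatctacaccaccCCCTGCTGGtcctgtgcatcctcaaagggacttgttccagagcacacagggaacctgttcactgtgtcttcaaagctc
Gm30996 (chr12:115407364-115407663, + strand): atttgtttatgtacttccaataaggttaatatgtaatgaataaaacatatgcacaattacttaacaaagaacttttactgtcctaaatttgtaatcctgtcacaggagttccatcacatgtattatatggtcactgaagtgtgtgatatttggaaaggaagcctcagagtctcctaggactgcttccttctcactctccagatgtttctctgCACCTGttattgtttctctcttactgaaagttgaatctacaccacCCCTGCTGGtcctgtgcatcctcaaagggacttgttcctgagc
Gm40900 (chr12:115703580-115703879, + strand): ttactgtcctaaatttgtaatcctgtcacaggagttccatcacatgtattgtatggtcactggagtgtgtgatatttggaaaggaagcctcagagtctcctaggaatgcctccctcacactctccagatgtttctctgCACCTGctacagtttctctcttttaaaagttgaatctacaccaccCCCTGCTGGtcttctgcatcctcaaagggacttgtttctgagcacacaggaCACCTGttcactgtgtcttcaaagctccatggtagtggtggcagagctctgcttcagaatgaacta
Gm30948 and Gm30996 were identical at 257 of 265 aligned positions (97.0%), Gm30948 and Gm40900 at 247 of 262 (94.3%), and Gm30996 and Gm40900 at 211 of 227 (93.0%). Each held CCAGCAGGG on its minus strand once, a motif present in 0.922% of 32544 promoters of the same length. Each also held CAGGTG, once in Gm30948 and Gm30996 and 2 times in Gm40900, a motif found in 20.3% of promoters. Both motifs occurred together in 77 promoters (0.237%). The 3 promoters are near-identical copies, so their matches are not independent of each other. A longer CTCF core motif was also searched for, and it had 0 matches in Gm30948, Gm30996 and Gm40900. It was present in 0.0799% of the 32544 promoters. CCAGCAGGG was chosen after these sequences had been seen, and a match describes letters, not binding.

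Of these promoters, Gm30948 and Gm40900 carried some of the strongest peaks of the locus. The peak over the Gm30948 promoter had folds of 13.5, 17.5, 8.69 and 8.66. That over Gm40900 had folds of 12.9, 11.2, 10.2 and 10.4, and that over Gm30996 had 8.40, 6.63, 5.58 and 5.32. Both wild-type values were above both mutant values at each of the 3, and the genotypes are compared below. Another noncoding RNA promoter with a peak, Gm40899, had folds of 10.05, 6.05, 8.07 and 6.88, and shared no more than 47 identical positions with any of the 3. At Gm40899 the genotypes overlapped. The distal V array is known to carry copies of a repeated element with CTCF and E-protein sites and antisense transcription (the PAIR elements), and whether these promoters belong to it was not tested. Reads from such similar copies can align to more than 1 of them, and how such reads were treated is not given in the sources used here.

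Among 13 promoters of the RefSeq table in the 3 loci, these 4 were the ones overlapped by a peak in each list. The table holds no V-segment promoters, so V segments are described by position only.

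The 3 loci differed in how densely they carried peaks. Igh held 109 regions per Mb, against 66.2 over the genome, 9.72 in Igk and 0 in Igl. The T-cell receptor loci held 142 (Trb), 178 (Tra/Trd) and 281 (Trg) per Mb. In single lists, Igh had 272, 245, 260 and 234 peaks and Igk had 26, 25, 18 and 15. A region was called in all 4 lists in 193 of 305 cases in Igh (63.3%) and 15 of 31 in Igk (48.4%), beside a background of 56.7% over all regions. Without wild type 2, 219 Igh and 15 Igk regions were called in each remaining list. Median folds in Igh were 5.10, 4.69, 3.89 and 4.23, above the list medians of 3.33, 3.27, 3.20 and 3.39.

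**Figure D1:**
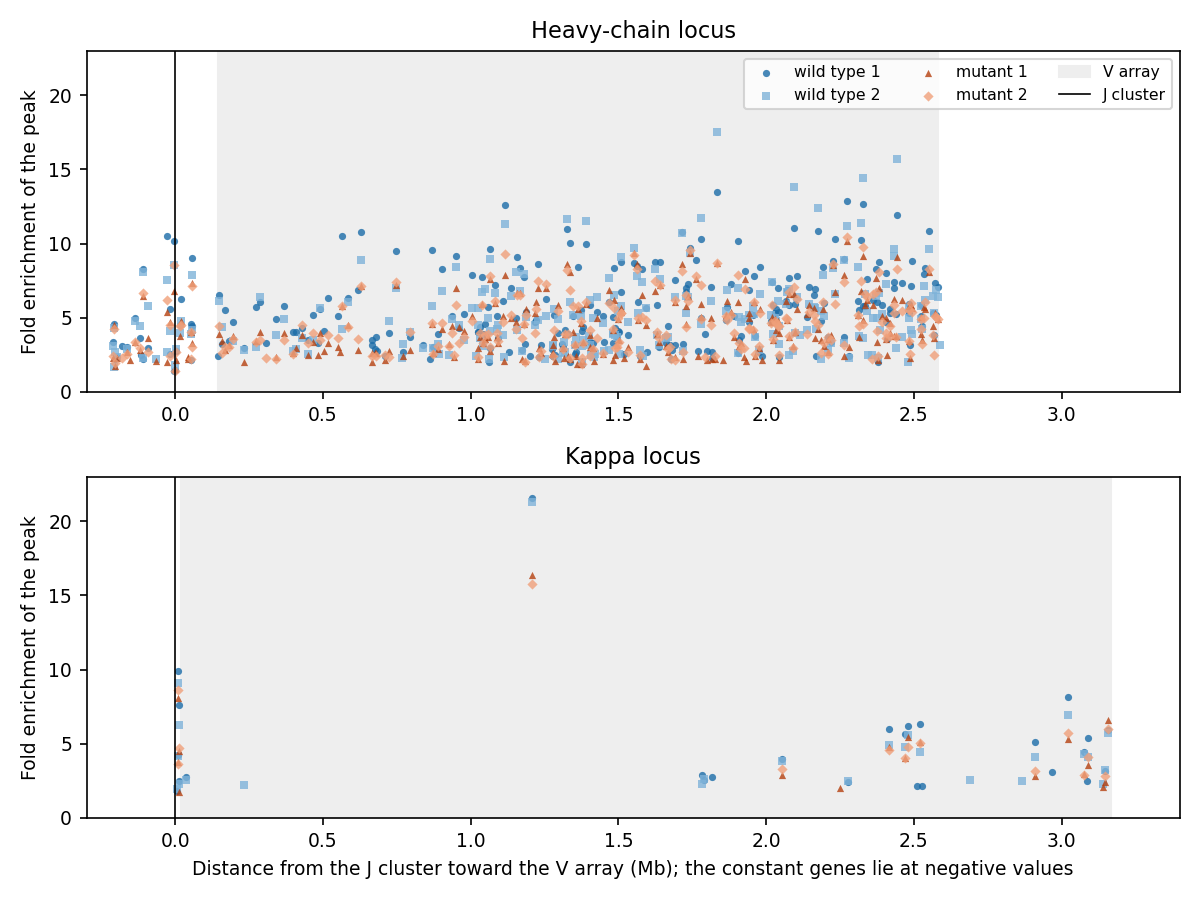
Fold enrichment of every peak (vertical axis, strongest peak per region and library) against distance from the J cluster in Mb, for Igh (top) and Igk (bottom), with 1 symbol per library and the V array shaded. Igh carries peaks along its whole V array, while Igk has 26 V-array regions, most of them far from the J cluster. These include 1 isolated strong peak, which has identical edges in all 4 lists.

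V segments gave the clearest contrast between the loci. A segment was counted when a peak came within 500 bp of it. Of 184 heavy-chain V segments, 116, 106, 116 and 107 had a peak (60.5% ± 2.99, SD, n = 4), and 90 (48.9%) had one in all 4 lists. None of 162 kappa V segments had a peak in any list. These were the annotated segments of the locus and not a sample, so no sampling limit applies to the count. None of the 3 lambda V segments had a peak, and so few segments say little about a share. The share was lower in Igk than in Igh in 4 of 4 libraries, with a mean difference of -60.5 percentage points (SD 2.99, range -63.0 to -57.6), and no values overlapped. The exact sign-flip test over libraries (two-sided) gave p = 0.13, the smallest 4 libraries allow, adjusted p = 0.188 over 3 pairs of loci. Without wild type 2 the heavy-chain share was 61.4% ± 2.82 (SD, n = 3), and 103 segments had a peak in each of the 3 lists.

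The T-cell receptor V segments were more often accessible than those of Igh. Of 35 Trb V segments 26 had a peak in each list (74.3%), and of 136 Tra/Trd V segments 125, 125, 121 and 121 did (90.4% on average). Of 7 Trg V segments 7, 5, 6 and 5 did. The heavy-chain share minus that of Trb was -13.8 percentage points (SD 2.99, lower in 4 of 4 libraries), and minus that of Tra/Trd it was -29.98 (SD 3.51, lower in 4 of 4). Against Trg it was -21.7 (SD 11.1, lower in 4 of 4). Each test gave p = 0.13 (exact sign-flip, two-sided, adjusted p = 0.13 over 9 pairs). The order of Igh and Trb depended on strength. With peaks of fold 4 or more alone, Igh was 16.9 percentage points above Trb. Pseudogenes made up 63 of 184 V segments in Igh, 13 of 35 in Trb and 17 of 136 in Tra/Trd, while all 7 Trg segments were functional. Among functional segments alone, mean shares were 76.4% in Igh, 92.0% in Trb, 94.5% in Tra/Trd and 82.1% in Trg. Igh then had 79.3%, 72.7%, 80.2% and 73.6% against 100%, 71.4%, 85.7% and 71.4% in Trg, so neither was the higher in every library.

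**Figure D2:**
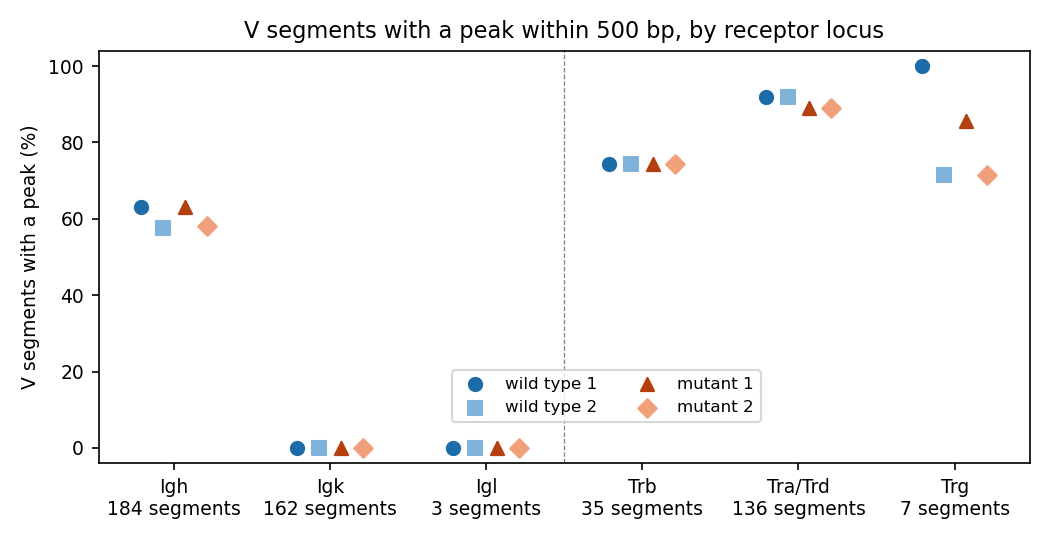
Percentage of V segments with a peak within 500 bp (vertical axis) in each of the 4 libraries, for the 3 immunoglobulin loci and 3 T-cell receptor loci. Igh lies between 57.6% and 63.0%, Igk and Igl at 0, and the T-cell receptor loci above Igh in each library.

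Within Igh, segments annotated as functional were more often accessible than pseudogenes. Among 121 functional V segments 96, 88, 97 and 89 had a peak, and 74 (61.2%) had one in all 4 lists. Among 63 V pseudogenes 20, 18, 19 and 18 had a peak, and 16 (25.4%) had one in all 4. The share was higher for functional segments in 4 of 4 libraries, by 46.7 percentage points (SD 2.66, exact sign-flip p = 0.13, two-sided, n = 4, adjusted p = 0.13 over 3 tests chosen after the values had been seen). For reference, windows of the same flank around other annotated genes had a peak in all 4 lists at 8.73% of 9944 pseudogenes and 75.2% of 21836 protein-coding genes. These windows span whole genes and were not matched to V segments in length, so the shares are not directly comparable.

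Along the array the share was highest at the end farthest from the D segments. When the 184 segments were ordered from the D side and split into 4 groups of 46, the group nearest the D segments (Ighv5-1 to Ighv6-2) had a peak at 25, 16, 23 and 20 segments. The farthest group (Ighv1-54 to Ighv1-86) had one at 39, 36, 41 and 41. The groups between them had 30, 27, 29 and 27, and 22, 27, 23 and 19. The farthest group also held more functional segments, 37 of 46 against 29, 30 and 25 in the others, nearest group first. Among functional segments alone, 33 of 37 in the farthest group had a peak in all 4 lists, against 12 of 29, 17 of 30 and 12 of 25.

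The V families of the locus differed in share and in fold. Ighv1 (the J558 family, the largest and mostly distal) had a peak at 61, 60, 61 and 57 of 92 segments, with median folds of 6.15, 5.07, 5.31 and 5.16. Ighv5 (the family nearest to the D segments) had one at 9, 7, 8 and 7 of 21, with median folds of 4.32, 3.02, 3.19 and 3.37. Ighv8 had one at 12, 13, 14 and 14 of 16 segments, and Ighv2 (the Q52 family) at 7, 5, 6 and 6 of 11. Ighv14 had the highest median folds of the families with 4 or more segments, 10.004, 7.04, 6.45 and 7.16, at 4, 3, 4 and 3 of its 4 segments. Ighv3 was the largest family nearly without peaks, with 0, 2, 0 and 0 of 8. Among Ighv5 segments the peaks were at functional members only, 9, 7, 8 and 7 of 10, and at 0 of 11 pseudogenes in every list. Functional Ighv1 members had one at 49, 49, 51 and 47 of 60, and Ighv1 pseudogenes at 12, 11, 10 and 10 of 32. Among functional members alone the mean shares of these 2 families were thus close, 81.7% for Ighv1 and 77.5% for Ighv5.

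The 10 V segments with the highest lowest fold included 7 functional Ighv1 members. Ighv1-52 (chr12:115145487-115145780) led, with folds of 10.8, 10.7, 8.63 and 8.18. Ighv1-84 had 10.9, 9.65, 8.05 and 8.29, and Ighv1-47 had 8.47, 7.80, 8.65 and 8.25. In Ighv1-47 the genotypes overlapped, and in the other pair both wild-type folds were the higher. Ighv1-70, Ighv1-49, Ighv1-64 and Ighv1-74 followed, each with a fold between 6.48 and 8.96 in every library. Ighv14-3 (10.8, 8.92, 7.13 and 7.16) and Ighv14-4 (9.50, 7.04, 7.23 and 7.39) were the Ighv14 members on the list. Ighv1-10, annotated as a pseudogene, had folds of 8.35, 6.78, 6.67 and 6.51. At Ighv5-2, long known as VH81X and the segment most used by fetal B-cell precursors, the folds were lower, 6.51, 6.13, 3.92 and 4.41.

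Peaks at Ighv1 and Ighv8 segments reached past the higher end of the segment more often than those at Ighv5 and Ighv2. Heavy-chain V segments run toward lower coordinates, so the recombination signal lies at the lower end and the promoter beyond the higher end. The higher end was covered in 44 of 73, 43 of 73, 57 of 75 and 52 of 71 peaks at Ighv1 and Ighv8. At Ighv5 and Ighv2 it was covered in 0 of 16, 0 of 12, 0 of 14 and 0 of 13, while the lower end was covered in 12, 9, 11 and 9 of them. Median widths were 557, 508, 735 and 721 bp in the former families and 166, 179.5, 135.5 and 136 bp in the latter. The annotated segments themselves had the same median length, 294 bp, in both. The 44 segments of the other families lay between, with median widths of 235, 205, 363 and 349 bp and the higher end covered in 3 of 27, 4 of 21, 8 of 27 and 6 of 23 peaks. These families were grouped after their values had been seen, so the difference is a description.

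**Figure D3:**
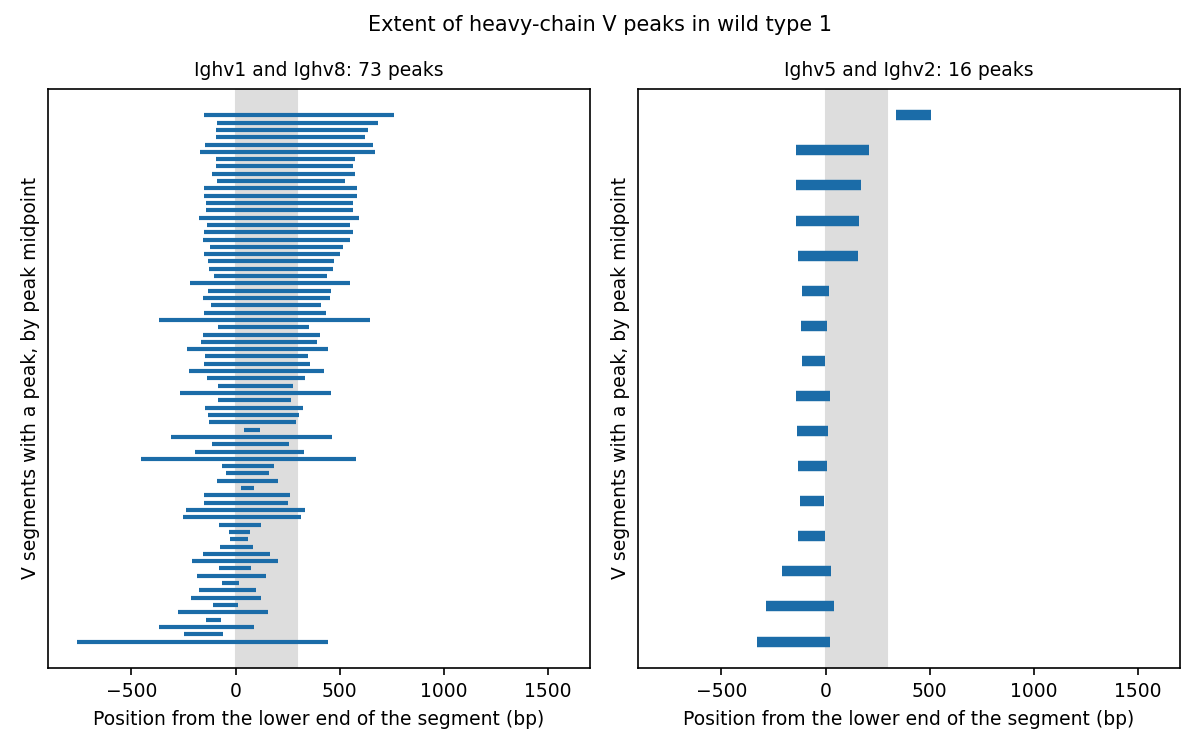
Extent of each heavy-chain V peak in wild type 1 (horizontal bars, bp from the lower end of its segment), for Ighv1 and Ighv8 (left, 73 peaks) and Ighv5 and Ighv2 (right, 16 peaks), with a segment of the median length of 294 bp shaded. Peaks on the left often span the segment, and of the 16 on the right 12 cover the lower end and 0 the higher end.

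Many heavy-chain V-array regions were not at a segment. Of 271 regions in the array, 129 lay within 500 bp of a V segment and 142 farther away, the latter at a median distance of 2880 bp. Of the latter, 85 (59.9%) were called in all 4 lists, near the background of 56.7%, with a median lowest fold of 3.95. For the regions at segments this was 90 of 129 (69.8%) and 4.36. Several of the strongest regions were of the distant kind. The region at chr12:115171414-115172317, 5337 bp from Ighv8-6, had nearly equal folds of 9.70, 9.35, 9.35 and 9.53. That at chr12:114981555-114982355, 3569 bp from Ighv1-46, had 8.68, 9.70, 9.35 and 9.25, and at both the genotypes overlapped.

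At the D, J and C end of Igh, peaks lay on both sides of the J segments and not on them. None of the 4 J segments had a peak of its own, although the peak at Ighd4-1 came within 500 bp of Ighj1 in 3 lists. That peak (chr12:113430252-113430901) covered Ighd4-1, the D segment next to the J segments, with folds of 2.76, 2.86, 2.18 and 2.71. Of 20 D segments, 3 had a peak in all 4 lists, and the other 17 had none in any list. The second was Ighd3-2, with folds of 6.27, 4.79, 4.80 and 4.53. The third was Ighd1-1, at the far end of the main D cluster, whose peak lay 264 bp away with folds of 4.59, 3.88, 4.05 and 4.01.

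The peak with the highest −log10 q of the 3 loci lay between Ighm and Ighj4. This interval holds the intronic enhancer, known to lie nearer the J segments, and the switch region of Ighm, known to lie nearer Ighm. The region at chr12:113424141-113425818, 1411 bp from Ighm, had folds of 10.2, 8.55, 6.82 and 8.59 and −log10 q values of 693, 334, 349 and 550. A second region, chr12:113427388-113427602, lay 912 bp from Ighj4 with folds of 1.48, 1.82, 1.57 and 1.44 and −log10 q values of 9.40, 6.97, 5.24 and 8.27. The larger region was nearer Ighm and the one with lower folds nearer the J segments, and neither was assigned to an element. Fold is a ratio to local background, so a low fold alone does not show how open a place is. For its fold the second region had a high −log10 p. It was above that of 94.9%, 93.6%, 80.6% and 91.3% of peaks of similar fold in the same list. Why its folds were low was not tested.

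Of the constant genes, which encode the antibody classes, only Ighd had a peak within 500 bp in any list. That peak lay inside Ighd, which encodes the IgD constant region, with folds of 5.57, 4.12, 4.74 and 4.54. Ighm, Ighg3, Ighg1, Ighg2b, Ighg2c, Ighe and Igha had none. Between these genes, 6 more regions were called in all 4 lists. The strongest were 4169 bp from Ighd on the Ighg3 side (10.5, 7.53, 5.38 and 6.18) and between Ighg2b and Ighg1 (8.32, 8.11, 6.44 and 6.64). The others were 3721 bp from Ighe, 4272 bp from Ighg2c, 2552 bp from Ighg2b and 4319 bp from Ighg1, with folds between 2.58 and 5.77.

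Beyond Igha, in the part of the window where the 3′ regulatory region is known to lie, 3 of 6 regions were called in all 4 lists. All 3 lay at the end of this part that is farthest from Igha. The strongest, at chr12:113221950-113223193 and 33011 bp from Igha, had folds of 4.59, 4.28, 4.53 and 4.27 and −log10 q values of 99.2, 71.4, 126 and 98.4. The others were weaker, 35148 bp from Igha across the window's edge (3.38, 3.12, 2.26 and 2.40) and 31745 bp from it (2.25, 2.69, 1.74 and 1.96). On the V side of the D segments, the interval from Ighd1-1 to Adam6b, which holds IGCR1, had 2 regions called in all 4 lists. The stronger (chr12:113487618-113488180, 5426 bp from Ighd1-1) had folds of 9.01, 7.88, 7.32 and 7.16, and the weaker (chr12:113485234-113485521) had 4.42, 4.20, 3.299 and 2.995. From Adam6b to the nearest V segment, 83.4 kb, there was no peak in any list, and this stretch includes the sperm genes Adam6b and Adam6a.

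The kappa locus had its open regions in other places. Its 5 J segments, the interval from Igkj5 to Igkc that holds the intronic enhancer, Igkc itself, and the 13.2 kb beyond it, where the 3′ enhancer is known to lie, had 0 peaks in all 4 lists. The nearest peak past the window was 12.5 to 12.6 kb farther on, with folds of 3.96, 3.53, 3.27 and 2.84. By contrast the interval between the V array and Igkj1, which holds Cer and Sis, had 5 regions in 18.4 kb, 3 of them in all 4 lists. The strongest lay 7909 bp from Igkj1 (chr6:70714273-70714653), with folds of 9.92, 9.08, 8.08 and 8.61. The other 2 had folds of 7.61, 6.25, 4.53 and 4.69 (chr6:70709299-70709870) and of 4.24, 4.18, 3.76 and 3.61 (chr6:70713228-70713372). In all 3 both wild-type folds were above both mutant folds, as they were in 66.7% of the 102231 regions of the genome called in all 4 lists. These intervals on the V side of the J segments, including that of IGCR1 in Igh, thus held peaks in both loci, while the J segments were without a peak of their own in both.

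**Figure D4:**
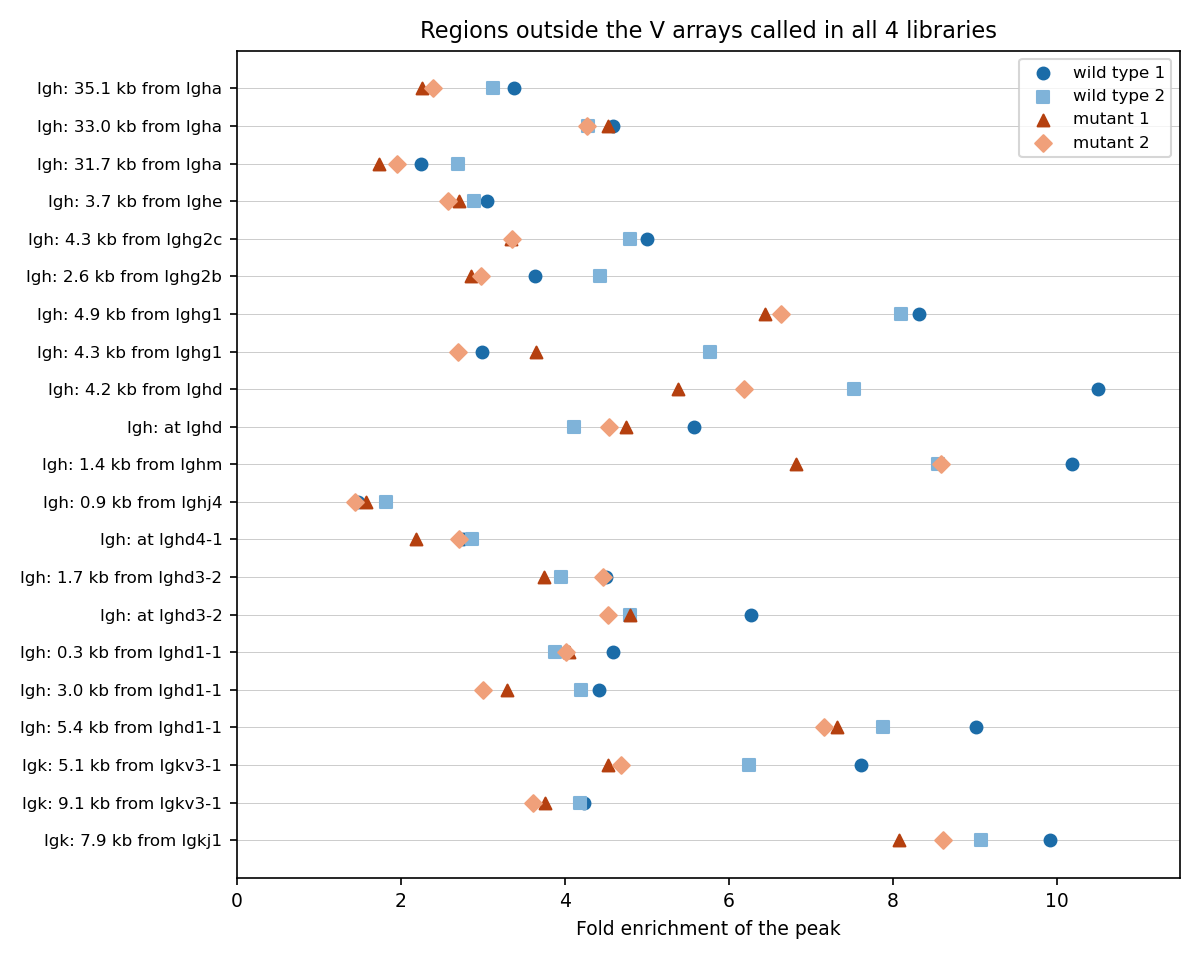
Fold enrichment (horizontal axis) of the 21 regions outside the V arrays that were called in all 4 libraries, in order along Igh and then Igk, with 1 symbol per library and the nearest segment named. Igh contributes 18 regions on both sides of the J segments, Igk 3 between its V and J segments, and Igl none.

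The kappa V array held 26 regions in 3149 kb, of which 12 were called in all 4 lists. These 12 lay 1945 to 36156 bp from the nearest V segment. The exception in strength was chr6:69516382-69516545, 7194 bp from Igkv13-57-2, with folds of 21.6, 21.3, 16.4 and 15.7. It was 164 bp wide with identical edges in all 4 lists. Over the genome 8 peaks, this peak included, had identical edges in all 4 lists, and 5 of them had a fold of 15 or more in wild type 1. No record of where reads align uniquely was used, and whether this peak arose from read alignment was not tested. The other 11 lay together in the 1.10 Mb at the far end of the array, including 1 over the transcribed pseudogene 4930515G16Rik (folds 5.89, 5.72, 6.60 and 5.97) and 1 at chr6:67699089-67699430 (8.14, 6.93, 5.30 and 5.75).

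The lambda locus had no peak in any library, over its 3 V segments, its 5 J and 4 C segments and the stretches beside them where its enhancers are known to lie. The nearest peaks were 16.7 to 16.8 kb below the window and 401 to 406 kb above it. The V segment closest to any peak was 81.7 to 81.8 kb away.

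Other annotated genes in the windows were mostly pseudogenes. Peaks in all 4 lists came within 1 kb of the Igh pseudogenes Rpl26-ps3, Gm34465, Gm18340 and Gm5660 and of the noncoding RNA Gm51964, whose peak is that of Ighv1-84. The microRNA genes Mir7094-1 and Mir7094-2 lay at the peaks of Ighv1-2 and Ighv1-5, with folds of 7.73, 6.74, 5.92 and 5.87 and of 7.20, 6.67, 5.97 and 6.15. In Igk, besides 4930515G16Rik, the noncoding RNA Gm46961 contained the strongest region of the V-J interval, and Gm30211, which runs past the window, had a peak beyond its edge. Peaks in some of the lists lay at Gm18551, Gm7019, Gm9245, Gm9251, Gm18341, Gm9728, Gm4873 and LOC115490474.

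The last question was whether mutation of the GATA sites in NMe, on another chromosome, went with a difference at these loci. Peak counts in Igh, 272, 245, 260 and 234, overlapped between the genotypes. Those in Igk, 26, 25, 18 and 15, were higher in both wild-type libraries. Of each list's peaks, fewer in the mutant lists, Igh took 0.161%, 0.157%, 0.215% and 0.197%, lower in both wild-type libraries. Igk took 0.0154%, 0.0160%, 0.0149% and 0.0126%, higher in both wild-type libraries. Both shares gave p = 0.33 (exact permutation, two-sided, n = 2 against 2), the smallest possible, so neither can reach 0.05. With equal numbers of peaks from each list, the Igh difference (wild type minus mutant) went from -0.0470 to -0.0193 percentage points and the Igk difference from 0.00194 to 0.00084. The Igk difference was 0.000801 without mutant 2 and 0.00307 without mutant 1. The covered length in Igh was 99.3, 94.6, 132 and 117 kb, larger in both mutant libraries (p = 0.33, same exact test), while peaks were wider in the mutant lists over the genome. In Igk it was 7.17, 7.30, 8.01 and 6.71 kb, and the genotypes overlapped. The Igk direction was reversed when peaks below fold 4 or below a −log10 q of 5 were left out, and, to a difference close to 0, when all lists were given the same joining gap and minimum length.

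The V-segment count did not separate the genotypes, with 111 ± 7.07 in wild type and 111.5 ± 6.36 in mutant heavy-chain V segments (SD, n = 2 each, exact permutation p = 1). Over the Igh regions called in all 4 lists, both wild-type folds were above both mutant folds in 114 of 193 (59.1%) and both mutant folds above in 6 (3.11%). The background over 102231 regions was 66.7% and 5.95%. In Igk it was 13 of 15 and 1 of 15. The median log2 ratio of wild-type to mutant fold was 0.26 in Igh and 0.30 in Igk, beside 0.25 over all regions, so the shift was close to that of the lists as a whole.

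Regions called in both wild-type lists and in neither mutant list numbered 5 of 208 in Igh (2.40%) and 5 of 21 in Igk (23.8%), beside a background of 15%. Mutant-only regions numbered 3 of 225 in Igh (1.33%) and 0 of 15 in Igk, beside 1.75%. The Igh wild-type regions were 7 bp from Ighv13-1 (folds 3.15 and 2.96), 3753 bp from Ighv1-4, 2324 bp from Ighv1-36, 1894 bp from Ighv1-59 and 3561 bp from Ighv1-66, and were 90 to 136 bp wide. Those of Igk were 8018 bp from Igkv15-103, 1285 bp from Igkv13-85, 1214 bp from Igkv13-84, 680 bp from Igkv3-3 and 5289 bp from Igkj1, with folds between 1.83 and 2.90. The mutant-only regions overlapped Ighv8-7 (folds 2.24 and 2.41) or lay 6161 bp from Ighv12-3 and 5766 bp from Ighv1-61. No fold among these 13 regions was above 4.24, beside median folds of 3.33, 3.27, 3.20 and 3.39 over the 4 lists. With equal numbers of peaks taken from each list, no wild-type-only region remained in Igk, and 3 were counted in Igh. Leaving out a library, which leaves fewer lists to meet, raised the Igh wild-type count to 24 without wild type 1, 17 without wild type 2 and 15 without mutant 1. The Igh mutant count rose to 29 without wild type 1, 6 without wild type 2 and 13 without mutant 2, and the Igk wild-type count to 8 without wild type 1 and 10 without wild type 2.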

How the data were processed

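ATAC-seq was measured in 4 DN3 thymocyte libraries, 2 per genotype, each with its own broad peak list, so peaks were called per library. Per the submitters' processing notes the authors used MACS2 2.1.1, cutadapt 1.16, SAMtools 1.7 and Bowtie2 2.3.3.1, with mm10 (GRCm38) as build. How these were set, how reads were filtered and whether they were shifted for the transposase is not given in the sources used here. Each peak of the deposited lists has a score, a fold enrichment over local background (a ratio), and −log10 p and −log10 q values, all of them the authors' own and used to describe, rank or filter peaks. The lowest deposited −log10 q was between 1.00 and 1.02.

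Autosomal, X and Y peaks were kept (0.112% to 0.131% of a list was left out), and the 4 lists were merged into union regions. A library had a region if a peak overlapped it by 1 bp. Segments and genes came from a RefSeq gene table of GRCm38.p6, which gives no strand. A segment was counted with a peak within 500 bp. Libraries were compared by exact permutation (genotypes) or exact sign-flip tests (loci), which cannot go below p = 0.33 and 0.13. Regions are not replicates and were not tested against each other. The strongest peak gave a region its fold. The code was tested on simulated lists. Members and lists were chosen with earlier results of these data known, and 3 tests within the heavy-chain V segments were added after their values had been seen, of which those between families chosen by their values are given as descriptions only. Named were all D, J and C segments or clusters, the enhancer and boundary intervals, up to 10 V segments per locus by the highest lowest fold, the regions of 1 genotype, and other genes with a peak within 1 kb. Promoter identity was taken from local alignment (Biopython 1.88). The alternatives tried were a −log10 q of 5, a fold of 4, equal numbers of peaks, a common joining gap and minimum length, 50% cover, no flank or 1 kb, leaving out each library, and the replicate block. Python 3.11.15, numpy 2.4.6, pandas 2.3.3 and matplotlib 3.10.9 were used. A gene of the B-lineage marker list was left out of all counts and is not reported here.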

Additional observations from a re-analysis of the deposited data

How the results depend on the processing

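Of 136 values recomputed under the alternatives, 106 stayed within the limits set for them, 26 moved and 4 reversed. The 106 include the Igh and Igk differences under the replicate block, which could not differ from the main ones. The limits were the same direction for tested differences, which may still change in size, a ratio of at most 1.5 for counts, and the SD over libraries for V-segment shares. Kappa V segments stayed below heavy-chain V segments in each alternative but the replicate block, where this was not computed. Igl had 0 regions called in every library in each alternative but the block and the flanks, where it was not computed. With a fold of 4 or more, 99 Igh and 9 Igk regions were called in every library, the share of heavy-chain V segments with a peak was 39.0%, and the heavy-chain share was 16.9 percentage points above that of Trb, a reversal. Wild-type-only regions then numbered 13 in Igh and 3 in Igk, and mutant-only regions 0 in Igh. With a −log10 q of 5 or more the heavy-chain share was 51.9% and Igk had 1 wild-type-only region. With equal numbers of peaks, wild-type-only regions numbered 3 in Igh and 0 in Igk, and mutant-only regions 8 in Igh. With a common joining gap and minimum length these were 2, 1 and 5. With 50% cover Igh had 21 mutant-only regions. With no flank the heavy-chain share was 56.25%, and with 1 kb the kappa share was 0.309%. The Igk share of the list, wild type minus mutant, was -0.00102 percentage points with a −log10 q of 5, -0.000573 with a fold of 4 and -3.1e-05 with the common gap, all reversed from 0.00194. Leaving out each library in turn gave 6 to 24 wild-type-only and 3 to 29 mutant-only regions in Igh, and 5 to 10 and 0 to 1 in Igk. The cause was not tested.

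The replicate block pairs libraries of the same number, which cannot change the mean genotype difference. The differences were thus again -0.0470 percentage points for Igh and 0.00194 for Igk. Each had p = 0.5 by the exact sign-flip test (n = 2 pairs), the smallest 2 pairs allow. The numbers are only shared names, and the log2 fold ratios of replicate 1 over replicate 2 had a correlation across 102231 regions of -0.0675 between genotypes.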
